A study of Homo sapiens with 4 samples.

Results

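The ZBTB genes encode transcription factors that join an amino-terminal BTB (POZ) domain to carboxy-terminal C2H2 zinc fingers. The BTB domain pairs 1 protein with another and binds corepressors such as NCOR, SMRT and BCOR, which bring histone deacetylases, and some members also bind the ubiquitin ligase scaffold CUL3. The zinc fingers choose the DNA, and the family is known for control of blood cell lineages, brain development, the p53 pathway, telomeres and the reading of methylated CpG. N6-methyladenosine (m6A) is a base mark of messenger RNA, written by the METTL3 and METTL14 complex and removed by the dioxygenases FTO and ALKBH5. Those enzymes use iron and 2-oxoglutarate, and ascorbic acid can serve such enzymes as a reductant.

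Members were taken by name, as genes called ZBTB with a number and any letters after it. The site lists held 39 such genes of 15209 named genes, and 38 of them had a tested site, of 10782 genes in all. A site was tested where all 4 libraries listed it with at least 20 reads of A or G in each. That left 422 ZBTB sites of 78509 tested sites, out of 1064 ZBTB sites listed in any library and 469 listed in all 4. ZBTB7C was listed without a tested site. ZBTB12BP, ZBTB16, ZBTB20 and ZBTB32 also meet the name rule in RefSeq and were not analysed here. ZBTB8OS meets the rule by name but encodes archease, a cofactor of the tRNA ligase complex, and is no zinc finger factor. The other members with a tested site were ZBTB1 to ZBTB6, ZBTB7A, ZBTB7B, ZBTB8A, ZBTB8B, ZBTB9 to ZBTB12, ZBTB14, ZBTB17, ZBTB18, ZBTB21, ZBTB22, ZBTB24 to ZBTB26, ZBTB33, ZBTB34, ZBTB37 to ZBTB49.

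The cells were wild-type HEK293T, a human embryonic kidney line grown in medium with serum. Cells of both groups were seeded for 24 h. The 2 ascorbic acid libraries came from cells then kept with ascorbic acid for 36 h, with fresh medium every 6 h. The 2 control libraries came from cells labelled as controls, for which no medium change is given. Ascorbic acid and repeated fresh medium thus cannot be told apart from these labels. The sources used here do not give the dose, and the study is limited to this 1 cell line. GLORI deaminates unmethylated adenosine to inosine, seen as G by the sequencer, and leaves m6A to be seen as A. Levels below are the percent of A among the A plus G reads of a site.

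The libraries held 25146378 and 26816350 reads of A or G over the listed sites with ascorbic acid, against 22592887 and 28562744 in control. At the tested ZBTB sites the median depth was 71.5 and 85 reads with ascorbic acid and 71.5 and 72 in control, below the 102 and 118 reads with ascorbic acid and 97 and 100 in control over all tested sites. The median share of adenosine left unconverted in ZBTB genes was 3.65% and 3.75% with ascorbic acid and 3.59% and 4.82% in control, so that control 2 stood apart from the other 3 libraries. Its part in the calls of sites and genes was not tested, but the fits were also run without that library. The median level was also computed with a correction for the unconverted share. Of the 6 HEK293T genes checked, VIM, NEFL, NEFM and XRCC5 were listed, and PAX2 and LHX1 were not. Of the markers of other cell types only COL1A1 was listed, with no tested site, and a gene without a called site has no entry. The labels do not say that the 2 samples of a group were separate cultures, so the p-values measure only the spread between these samples.

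The m6A levels of ZBTB transcripts were lower with ascorbic acid as measured, while scaling with TMM factors on the A and G columns gave both falls and rises. The median level over the 422 sites was 42.2% and 44.8% in the 2 ascorbic acid libraries, against 50.0% and 51.7% in the 2 control libraries. Both ascorbic acid values lay below both control values, at 43.5% ± 1.82 and 50.9% ± 1.22 (SD, n = 2 each), a difference of -7.37 percentage points. The exact permutation test over the 4 libraries gave p = 0.33, two-sided, which is the smallest p this design allows. Taken over each library's own list of ZBTB sites, the difference was -3.03 points. With levels corrected for the unconverted share, the difference over the tested sites was -7.28 points. Among the single sites, 78 of 422 fell and 0 rose by edgeR's quasi-likelihood test at an adjusted p of 0.05, and 344 did not pass. The falls were 18.5% of the ZBTB sites, beside 25.7% of all tested sites, and the rises in the whole series were 0.22%. No ZBTB site was higher at an unadjusted p of 0.05 either, while 119 were lower, and DESeq2 and limma also called 0 rises. The falls were fewer in these fits, 31 with DESeq2 and 43 with limma, and 47 without either ascorbic acid library. Over all tested sites the falls were 12.4% with DESeq2 and 13.0% with limma. TMM factors were also used to scale the A and the G reads of each library as separate columns. This moves the median change over all genes to 0.05 on the log2 scale of the odds, against -0.39 without them. Falls and rises with these factors are thus relative to the series, and a gene that rose can have a lower measured level. With these factors 40 ZBTB sites fell and 9 rose, beside 9380 falls and 3678 rises among all 78509 tested sites.

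Counted without a test, 333 of the 422 sites were lower with ascorbic acid by any amount, 78.9% beside 82.9% in the whole series. The groups did not overlap at 211 sites that were lower, 50.0% beside 55.4% in the whole series, and at 23 sites that were higher, 5.45% beside 4.22%. The median change was -4.56 points, close to the -4.89 points over all tested sites and the -4.68 points over 2257 sites of the ZNF genes, the larger group of zinc finger genes named by number. Of the ZNF sites, 399 or 17.7% fell. The ZBTB sites that fell had a median change of -17.0 points, beside -14.8 points over all sites that fell in the series. At 31 of the 422 sites the fall was over 20 points, beside 6340 of all 78509.

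**Figure D1:**
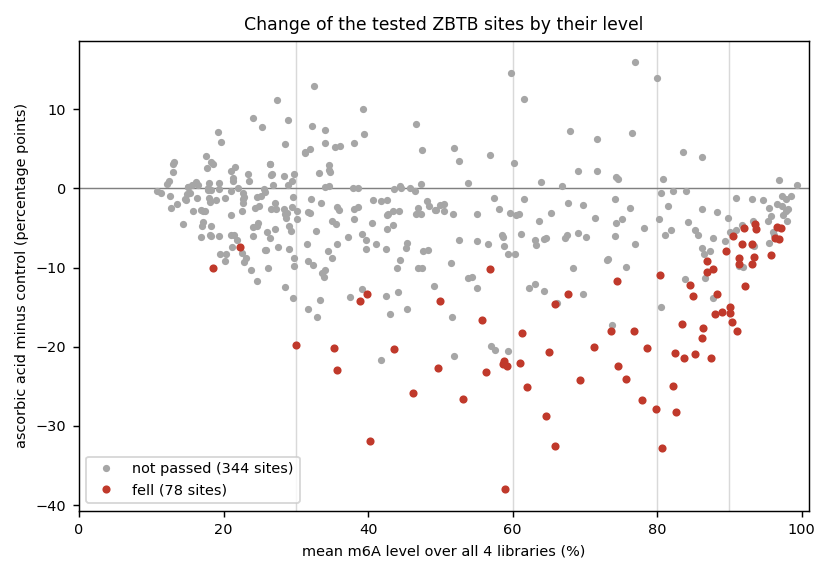
Each point is 1 of the 422 tested ZBTB sites. The x axis is the mean m6A level over all 4 libraries in percent and the y axis is ascorbic acid minus control in percentage points. Red points are the 78 sites that fell and grey points the 344 that did not pass, and thin vertical lines mark 30, 60, 80 and 90%. With TMM factors on the A and G columns 40 sites fell and 9 rose.

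Genes were then compared by adding up the A and the G reads of all their tested sites. By edgeR, 20 of 38 ZBTB genes fell and 0 rose, 52.6% beside 56.8% falls and 0.297% rises among all 10782 genes. The ZBTB genes had a median of 9 tested sites, beside 4 over all genes. Among genes with at least 3 tested sites, 18 of 32 ZBTB genes fell, or 56.25%, beside 68.3% in the whole series. With TMM factors on the A and G columns 2 of the 38 ZBTB genes fell, ZBTB17 and ZBTB48. Those that rose, relative to the series, were 8, ZBTB2, ZBTB4, ZBTB5, ZBTB12, ZBTB21, ZBTB33, ZBTB34 and ZBTB39. Of these 8 only ZBTB4 had a higher summed level with ascorbic acid as measured. Among all 10782 genes 1635 fell and 1500 rose with these factors. At an unadjusted p of 0.05 by edgeR, 23 ZBTB genes were lower and 0 higher. DESeq2 called 11 falls and 0 rises and limma 14 falls and 0 rises. These falls were 28.9% and 36.8% of the ZBTB genes, beside 36.3% and 40.9% of all genes. The genes called were ZBTB1, ZBTB3, ZBTB5, ZBTB7A, ZBTB7B, ZBTB8A, ZBTB8B, ZBTB10, ZBTB11, ZBTB17, ZBTB18, ZBTB22, ZBTB37, ZBTB39, ZBTB40, ZBTB44, ZBTB45, ZBTB47, ZBTB48 and ZBTB49. Of these, 9 kept the call in every alternative other than the TMM factors, among them ZBTB48, ZBTB40, ZBTB44, ZBTB10 and ZBTB17. The median change in log2 odds was -0.35 over the ZBTB genes and -0.39 over all genes. A read that covers 2 neighbouring sites counted at each, and reads are not independent molecules, so that errors cover counting and the spread between these libraries only.

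**Figure D2:**
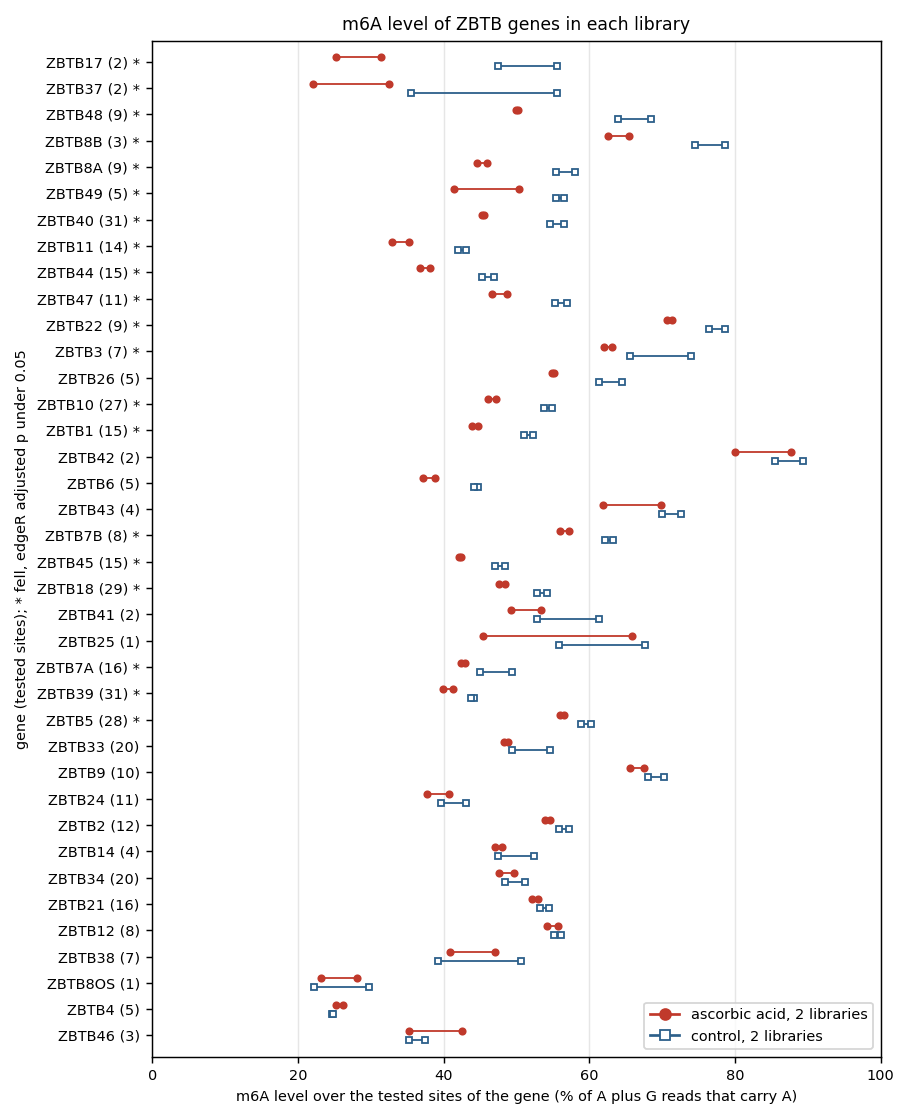
Each row is a ZBTB gene with its number of tested sites, in order of the change in log2 odds, the most negative at the top. Red circles are the 2 ascorbic acid libraries and open blue squares, drawn just below them, the 2 control libraries, with the m6A level in percent on the x axis and a line joining the libraries of a group. Stars mark the 20 genes that fell, of which 2 also fell with TMM factors on the A and G columns.

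Both members known to bind telomere repeats fell, beside 56.8% of all genes, and with TMM factors 1 of them, ZBTB48, did. ZBTB48, also called TZAP, binds telomeric DNA and limits telomere length, and ZBTB10 binds variant telomere repeats. The level of ZBTB48 over 9 sites was 49.9% and 50.3% with ascorbic acid, against 64.0% and 68.5% in control. The groups lay far apart, and the difference of -16.2 points corresponded to -0.97 ± 0.12 in log2 odds (SE), with an adjusted p of 1.25e-06 by edgeR. ZBTB10, measured at 27 sites, had 47.2% and 46.1% with ascorbic acid, against 53.8% and 54.8% in control. That is a change of -0.45 ± 0.08 in log2 odds (SE) with an adjusted p of 0.000107 by edgeR, and ZBTB10 was at 0.00 in log2 odds with TMM factors.

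ZBTB17 encodes MIZ1, the DNA-binding partner through which MYC represses cell cycle inhibitors. Over its 2 sites, 83 and 257 nt from the annotated 3′ end of the gene, the level was 25.2% and 31.4% with ascorbic acid, against 55.6% and 47.4% in control. This was the most negative change of any ZBTB gene, at -1.42 ± 0.28 in log2 odds (SE), with an adjusted p of 0.000196 by edgeR, and both sites fell. Depth was modest, with 127 and 137 reads with ascorbic acid and 117 and 116 in control.

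Of the other members tied to p53, ARF or the cell cycle, ZBTB5, ZBTB7A and ZBTB49 fell, and ZBTB2 and ZBTB4 did not pass, so that with ZBTB17 4 of 6 in that group fell, beside 56.8% of all genes. With TMM factors ZBTB17 fell and ZBTB2, ZBTB4 and ZBTB5 rose. ZBTB49 can activate the cell cycle inhibitor p21. Its level over 5 sites was 50.3% and 41.5% with ascorbic acid, against 55.5% and 56.5% in control, a change of -0.60 ± 0.22 in log2 odds (SE) with an adjusted p of 0.0275 by edgeR. The 2 ascorbic acid libraries differed from each other almost as much as from control. The change was -0.33 log2 odds without ascorbic acid 2 and -0.57 without control 2. The call of ZBTB49 did not hold in these fits, with limma or with DESeq2, and the gene was not tested at a minimum of 50 reads. ZBTB5 represses p21 and changed by -0.20 log2 odds over 28 sites, a call that did not hold without ascorbic acid 1, ascorbic acid 2 or control 2, with limma, with DESeq2 or with the replicate number as a block. ZBTB2, a repressor of ARF and p53 targets, had 54.3% with ascorbic acid and 56.5% in control over 12 sites, with an adjusted p of 0.223 by edgeR.

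None of the 3 members that bind methylated CpG passed, while 56.8% of all genes fell. With TMM factors ZBTB33 and ZBTB4 rose. ZBTB33 is Kaiso, the first of this group to be described, and its level over 20 sites was 48.4% and 48.9% with ascorbic acid, against 49.4% and 54.6% in control, with an adjusted p of 0.0693 by edgeR. ZBTB4 had 25.7% ± 0.642 with ascorbic acid and 24.7% ± 0.0884 in control, and ZBTB38 had 44.0% ± 4.46 with ascorbic acid and 44.9% ± 8.04 in control (SD, n = 2 each). The changes were -0.19 ± 0.09, 0.07 ± 0.17 and -0.03 ± 0.21 log2 odds (SE) in ZBTB33, ZBTB4 and ZBTB38, so that ZBTB38 was measured least precisely. ZBTB4 was 1 of 2 members with a higher summed level, and ZBTB46, at 0.15 log2 odds, was the other. For ZBTB4 the sign turned where each of its 5 sites counted the same, to -0.824 points beside the 0.975 points of the summed reads.

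Among members with roles in blood and immune cells, 4 of 7 fell, close to the 56.8% of all genes, namely ZBTB1, ZBTB7A, ZBTB7B and ZBTB17, and with TMM factors ZBTB17 alone. ZBTB1 is needed for lymphocyte development. Over 15 sites it had 44.8% and 43.9% with ascorbic acid, against 51.0% and 52.3% in control, a change of -0.42 ± 0.11 log2 odds (SE) with an adjusted p of 0.00213 by edgeR, and it was at 0.02 with TMM factors. ZBTB7B, or ThPOK, commits thymocytes to the CD4 lineage, and averaged 56.6% ± 0.898 with ascorbic acid and 62.7% ± 0.851 in control (SD, n = 2 each). The ZBTB7B call did not hold without ascorbic acid 1, ascorbic acid 2 or control 2, with DESeq2 or at a minimum of 50 reads. ZBTB24, which is mutated in a form of ICF syndrome and activates CDCA7, averaged 39.2% ± 2.14 with ascorbic acid and 41.3% ± 2.40 in control and did not pass as a gene, although 2 of its 11 sites fell. ZBTB25 and ZBTB46, a marker of classical dendritic cells, did not pass, with 1 and 3 tested sites.

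In the group tied to brain and muscle development, ZBTB18 and ZBTB45 fell and ZBTB42 did not pass, while 56.8% of all genes fell. With TMM factors 0 of the 3 passed. The call of ZBTB18 did not hold with limma, and that of ZBTB45 with DESeq2 or without ascorbic acid 2. ZBTB18, or RP58, is a repressor needed for development of the cerebral cortex. Its summed reads, 4475 and 5663 with ascorbic acid and 4958 and 5228 in control, were the most of any member, and its level was 47.6% and 48.4% with ascorbic acid, against 52.8% and 54.2% in control. The change was -0.32 ± 0.07 log2 odds (SE) with an adjusted p of 0.000932 by edgeR. ZBTB45 averaged 42.2% ± 0.205 with ascorbic acid and 47.7% ± 0.993 in control (SD, n = 2 each). ZBTB42, a close relative of ZBTB18, had the highest level of any member, 83.8% ± 5.42 with ascorbic acid and 87.4% ± 2.78 in control, over 2 sites.

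The remaining falls were in members whose roles are less well known. The pair ZBTB8A and ZBTB8B, neighbours on chromosome 1, both fell. ZBTB8A had 46.0% and 44.6% with ascorbic acid, against 55.5% and 58.1% in control, a change of -0.67 ± 0.13 log2 odds (SE) with an adjusted p of 0.000166 by edgeR. ZBTB8B had 65.4% and 62.6% with ascorbic acid, against 74.5% and 78.7% in control, over only 3 sites, with -0.91 ± 0.29 log2 odds (SE) and an adjusted p of 0.0122 by edgeR. For ZBTB8B the change was -0.80 log2 odds without ascorbic acid 2 and -0.74 without control 2. The call did not hold in these fits or with DESeq2, and the gene was not tested at a minimum of 50 reads. ZBTB8OS on the other strand had 1 tested site, at 25.6% ± 3.48 with ascorbic acid and 26.0% ± 5.33 in control (SD, n = 2 each).

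ZBTB40 had the most tested sites together with ZBTB39, 31 each, and the 2 genes differed in size of change. The level of ZBTB40 was 45.6% and 45.3% with ascorbic acid, against 54.5% and 56.6% in control, or -0.59 ± 0.08 log2 odds (SE) with an adjusted p of 3.12e-06 by edgeR. ZBTB39 had 41.3% and 39.9% with ascorbic acid, against 44.2% and 43.8% in control, or -0.20 log2 odds with an adjusted p of 0.0396 by edgeR, and it was among the rises with TMM factors. That call did not hold with limma, DESeq2 or the replicate block, at a minimum of 50 reads or without either ascorbic acid library. In ZBTB40 12 sites fell and in ZBTB39 1 did. The difference between the 2 genes was not itself tested.

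ZBTB11, required for neutrophil development in zebrafish, had 32.9% and 35.2% with ascorbic acid, against 43.1% and 42.0% in control, at 14 sites. ZBTB44 had 36.7% and 38.1% with ascorbic acid, against 45.2% and 46.9% in control, at 15 sites. ZBTB47 had 48.6% and 46.6% with ascorbic acid, against 55.3% and 57.0% in control, at 11 sites. All 3 genes were lower without overlap of the groups, as were 76.7% of all genes. The changes were -0.52, -0.51 and -0.49 log2 odds, with adjusted p-values of 0.000527, 0.000155 and 0.000223 by edgeR. ZBTB22 had 71.3% and 70.7% with ascorbic acid, against 78.6% and 76.4% in control, and an adjusted p of 0.00361 by edgeR, a call not made by limma. ZBTB3 had 62.0% and 63.2% with ascorbic acid, against 65.6% and 73.9% in control. Its call was made at -0.48 ± 0.18 log2 odds (SE) and an adjusted p of 0.0307 by edgeR. The call rested on control 2, without which the change was -0.19. It also did not hold without either ascorbic acid library, with limma, with DESeq2 or at a minimum of 50 reads.

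ZBTB37, at -1.08 log2 odds, had 27.3% ± 7.36 with ascorbic acid and 45.5% ± 14.2 in control (SD, n = 2 each), over 2 sites with 63 to 77 reads in all per library. Its control libraries stood at 55.6% and 35.5%. The call did not hold without control 1, without ascorbic acid 1, with limma or with DESeq2, and the gene was not tested at a minimum of 50 reads. The members not yet described that did not pass were ZBTB6, ZBTB9, ZBTB12, ZBTB14, ZBTB21, ZBTB26, ZBTB34, ZBTB41 and ZBTB43, with changes between -0.48 in ZBTB26 and -0.04 in ZBTB12. ZBTB26 and ZBTB6 came closest, with adjusted p-values of 0.0575 and 0.066 by edgeR. For ZBTB21 and ZBTB34, with 16 and 20 sites, the change was -0.07 ± 0.11 and -0.08 ± 0.11 log2 odds (SE).

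Single sites showed larger changes than the gene sums. Among sites with at least 50 reads in every library, the largest fall was in ZBTB40, at chr1:22490301 on the plus strand, with 41.8% and 38.2% with ascorbic acid, against 75.3% and 80.6% in control. The depth was 67 and 76 reads with ascorbic acid and 77 and 67 in control, and the adjusted p was 4.73e-07 by edgeR. In ZBTB44 the site at chr11:130261183 on the minus strand had 68.5% and 68.5% with ascorbic acid, against 94.8% and 98.6% in control (adjusted p = 2.16e-10, edgeR). In ZBTB48 the site at chr1:6580842 on the plus strand had 62.1% and 67.1% with ascorbic acid, against 88.9% and 93.7% in control (adjusted p = 1.63e-10, edgeR). The last 2 sites were almost fully methylated in control and partly unmethylated with ascorbic acid.

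The other 7 of the 10 largest falls, 1 per gene, ranged from -25.9 to -15.8 points. The ZBTB17 site at chr1:15941952 (minus strand) had 29.4% and 37.2% with ascorbic acid, against 62.3% and 56.0% in control. A ZBTB10 site on chromosome 8, 2074 nt from the annotated 5′ end, had 54.8% and 44.0% with ascorbic acid, against 70.9% and 78.0% in control. The ZBTB8A site at chr1:32593692 (plus strand) had 46.0% and 50.0% with ascorbic acid, against 67.9% and 73.0% in control. These 3 were sites of middle level in control. The ZBTB45 site at chr19:58517337 (minus strand) had 75.8% and 68.5% with ascorbic acid, against 90.2% and 95.5% in control. The ZBTB47 site at chr3:42665268 (plus strand) had 27.5% and 22.9% with ascorbic acid, against 41.6% and 49.0% in control. The last of these sites was read as G in most molecules of both groups. The ZBTB18 site at chr1:244053983 (plus strand) had 76.1% and 78.9% with ascorbic acid, against 95.2% and 95.1% in control. The ZBTB7A site at chr19:4054964 (minus strand) had 80.7% and 79.5% with ascorbic acid, against 95.6% and 96.3% in control. Adjusted p-values of the 7 sites lay between 2.2e-09 and 0.00119 by edgeR, and with DESeq2 those of ZBTB17 and ZBTB8A were 0.057 and 0.094.

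The ZBTB site with the most reads, chr1:244053875 in ZBTB18, gave the tightest estimate, from 388 and 475 reads with ascorbic acid and 387 and 478 in control. Its level was 61.9% and 60.2% with ascorbic acid, against 73.1% and 75.5% in control, a fall of -13.3 points with an adjusted p of 1.83e-05 by edgeR. The 3 sites with the highest mean level over all 4 libraries were near 100% in both groups. A small difference between the groups follows from that choice. At chr12:57003362 in ZBTB39 the level was 99.3% and 100% with ascorbic acid, against 99.3% and 99.0% in control. At chr3:42658872 in ZBTB47 it was 98.1% and 97.9% with ascorbic acid, against 98.9% and 99.0% in control. At chr11:62752510 in ZBTB3 it was 94.9% and 98.6% with ascorbic acid, against 98.7% and 100% in control. At these 3 sites the change did not pass, with adjusted p-values from 0.208 to 0.641 by edgeR, and the largest difference was -2.54 points. ZBTB39 and ZBTB47 each hold such a site, picked for its high mean, and ZBTB47 holds others that fell.

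Sites of 1 gene changed by unequal amounts in 15 of 36 ZBTB genes with at least 2 tested sites, by edgeR's diffSpliceDGE test on the log odds. That is 41.7% beside 47.9% in the whole series. Among genes with at least 10 tested sites, 12 of 17 ZBTB genes passed, or 70.6%, beside 75.2%. The adjusted p was smallest for ZBTB10, at 3.18e-12, ZBTB44, at 1.56e-09, ZBTB18, at 2.64e-09, ZBTB40, at 1.86e-08, and ZBTB7A, at 5.3e-08, and ZBTB48 followed at 9.29e-08. The test assumes that sites add separate information, and neighbouring sites share reads. With 1 site kept in each run of sites less than 50 nt apart, 15 genes passed as well. ZBTB21, ZBTB24 and ZBTB34 passed this test without passing as genes, but none of the 3 passed at a minimum of 50 reads. ZBTB34 also missed the threshold with the replicate block, at an adjusted p of 0.0679, and without ascorbic acid 1, ascorbic acid 2 or control 1, at 0.171, 0.31 and 0.181 by diffSpliceDGE. ZBTB21 missed it without ascorbic acid 2 or control 2, at 0.0893 and 0.174.

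ZBTB44 shows what unequal change meant. Its 15 tested sites lie in a run of 8 that starts 53127 nt from the annotated 5′ end, a single site, and a run of 6 that lies 7451 to 7579 nt from the annotated 3′ end. In the first run 4 sites fell, and the 3 with a mean level of at least 60% were all among them. In the last run 1 of 6 sites fell, and the median level there was 23.1% with ascorbic acid and 24.5% in control. The largest change in log2 odds was the fall at chr11:130261183 given above, and the least negative was at chr11:130234128, with 28.8% and 27.3% with ascorbic acid, against 22.7% and 27.1% in control.

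ZBTB7A encodes LRF, a silencer of fetal globin genes, and its sites split in the same way. In the run of 8 sites that starts 11935 nt from the 5′ end, all 8 were lower and 4 fell, with a median level of 76.5% with ascorbic acid and 90.8% in control. In the 2 runs farther 3′, with 2 and 6 sites, 0 fell. These mostly had low levels, but the 1 of them with a mean of at least 60%, chr19:4045185, had 60.7% and 73.3% with ascorbic acid, against 69.8% and 63.6% in control. The most negative log2 odds in ZBTB7A were at chr19:4054580, with 83.6% and 78.7% with ascorbic acid, against 95.7% and 97.9% in control. The other end was chr19:4047448, with 35.6% and 40.2% with ascorbic acid, against 38.2% and 37.6% in control. The summed level of the gene moved little, by -4.57 points with an adjusted p of 0.0242 by edgeR. That call did not hold without control 1, without either ascorbic acid library, with limma, with DESeq2 or at a minimum of 50 reads.

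In ZBTB10 6 of 8 sites with a mean level of at least 80% fell, as did 0 of 11 under 30%. Its extremes in log2 odds were a site 1581 nt from the 5′ end, with 93.3% and 93.9% with ascorbic acid, against 100% and 100% in control, and a site at 1245 nt, with 64.5% and 69.8% with ascorbic acid, against 69.0% and 42.9% in control. In ZBTB18 6 of 8 such high sites fell and 1 of 10 low ones. Its extremes were chr1:244054760, with 94.1% and 94.3% with ascorbic acid, against 98.9% and 99.2% in control, and chr1:244054991, with 19.4% and 19.7% with ascorbic acid, against 16.8% and 14.1% in control. ZBTB40 has few high sites, of which 2 of 3 fell, while 9 of 18 fell between 30 and 80% and 1 of 10 under 30%. Its least negative site, chr1:22527928, had 35.2% and 37.1% with ascorbic acid, against 25.3% and 31.3% in control, and departed from the rest of the gene with an adjusted p of 0.00548 by diffSpliceDGE.

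**Figure D3:**
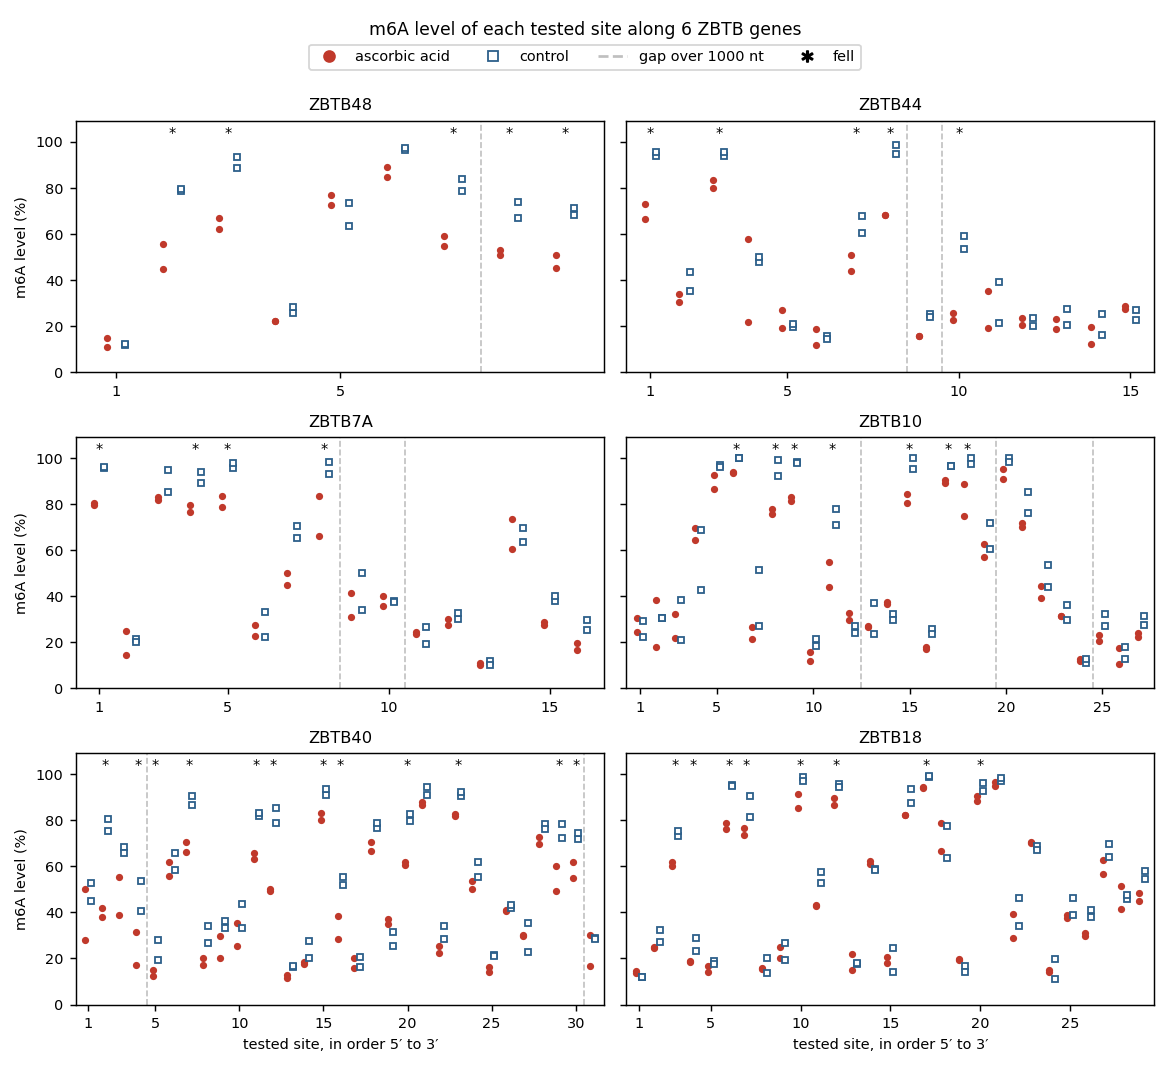
Each panel is 1 gene, with its tested sites in order from 5′ to 3′ on the x axis, not to scale, and the m6A level in percent on the y axis. Red circles are the 2 ascorbic acid libraries and open blue squares the 2 control libraries, stars mark sites that fell without TMM factors, and dashed lines mark gaps over 1000 nt. In ZBTB44 4 of the 5 falls and in ZBTB7A all 4 lie in the first run of sites, and the only falls at a mean level under 30% are 1 in ZBTB18 and 1 in ZBTB40.

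Over the family the share of sites that fell went with the level. Grouped by the mean over all 4 libraries, 2 of 123 sites under 30% fell, 18 of 140 between 30 and 60%, 18 of 66 between 60 and 80%, 20 of 45 between 80 and 90% and 20 of 48 above 90%. In the ZBTB genes these were 1.63%, 12.9%, 27.3%, 44.4% and 41.7%. In the whole series 3669 of 30539 sites under 30% and 6616 of 26415 between 30 and 60% fell, and in the 3 higher classes 43.5%, 52.6% and 44.2%. Each ZBTB share was below that of the whole series. The ZBTB sites were also read less deeply, with a median of 76.8 reads per site over the 4 libraries beside 104.5 over all tested sites, and the part of depth in this was not tested. Grouped by control 1 alone, with the calls taken from the fit without control 1, the shares of ZBTB sites that fell were 3.31%, 3.94%, 21.1%, 25.9% and 35.5%. Each of these shares was below that of all tested sites in its class, where the share also rose with the level. The median change in log2 odds in that fit was -0.22 in the lowest class and -1.66 in the highest. Over all tested sites it was -0.29 and -1.93. A mean above 90% was found at 28 sites with ascorbic acid and at 76 sites in control, and the 28 were all among the 76. The same counts over all tested sites are not given here.

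**Figure D4:**
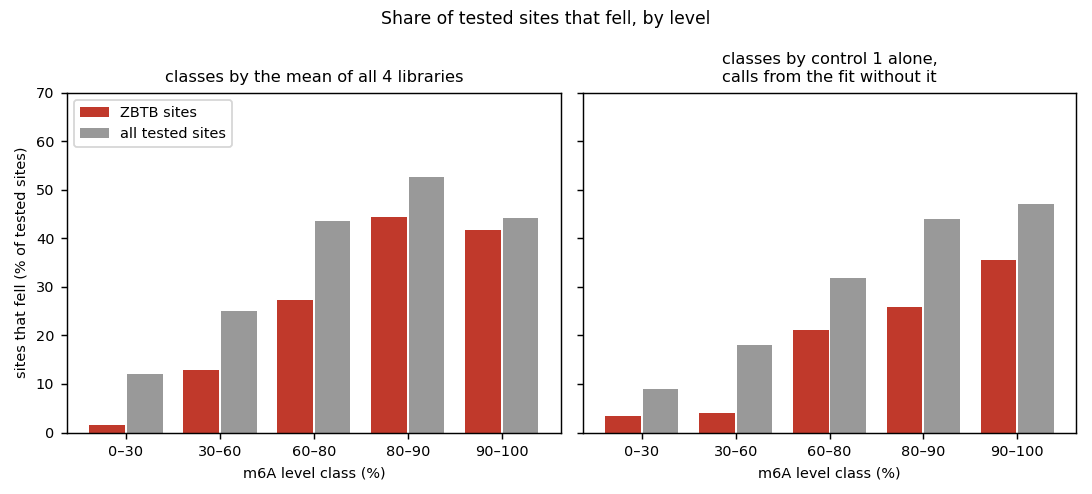
Bars give the percent of tested sites that fell in each class of m6A level, for ZBTB sites in red and for all tested sites in grey. Each red bar is lower than the grey bar of its class. On the left, classes are by the mean of all 4 libraries, and on the right by control 1 alone with calls from the fit without it. In the ZBTB genes the bars run from 1.63% to 44.4% on the left and from 3.31% to 35.5% on the right, all without TMM factors.

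The share of falls by distance from the annotated gene end stood out in the farthest class only. Of 41 ZBTB sites lying over 20000 nt upstream of the annotated gene end, which belong to 8 genes, 16 fell, or 39.0%. ZBTB10 alone held 19 of these sites and 7 of the falls. In the nearer classes 18 of 108 sites at 5000 to 20000 nt, 37 of 233 at 1000 to 5000 nt and 7 of 40 under 1000 nt fell, or 16.7%, 15.9% and 17.5%, with no trend among them. In the protein-coding genes of the whole series the shares from the farthest class to the nearest were 37.4%, 26.7%, 22.7% and 29.8%. Among sites with a mean level of at least 60%, 12 of 16 ZBTB sites beyond 20000 nt fell, in 4 genes, then 14 of 37, 28 of 92 and 4 of 14 in the nearer classes, beside 63.1%, 48.8%, 42.5% and 51.5% in the whole series. The sites of 1 gene are not independent of each other. Distances are along the genome, and no transcript annotation was used, so exon, intron and UTR are not given.

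For a few sites the bases could be read from RefSeq's promoter windows (GRCh38.p14), as 16 listed ZBTB sites lie in the window of their own or a neighbouring gene. All 16 have A at the site. They are shown because m6A is mostly written at A within the words GAC or AAC. The 3 below that hold such a word are tested sites inside gene bodies, and the ZBTB11 site is the first base of the annotated gene. The word around the site is in capitals, or A alone where the word is neither of these, and each sequence is given 5′ to 3′ on the minus strand, that of the gene.
ZBTB12 chr6:31901010: gctgttaggGACatcgtcaac
ZBTB12 chr6:31900831: tccagccagGACcccaaagcc
ZBTB24 chr6:109466216: tGACtgcagagag
ZBTB11 chr3:101677132: ccattttgtcAgtcgccagcg
Of the 16 sites 12 hold GAC or AAC with its A at the site, beside 28.6% of all listed sites inside such windows and 10.7% of all A in them, counted on both strands. Of the 35116 windows, 35112 hold either word somewhere. The 12 sites lie in only 4 genes, 8 of them in ZBTB24, so that this is a description.

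The 2 ZBTB12 sites had 74.6% and 72.4% with ascorbic acid, against 78.6% and 82.4% in control, at chr6:31901010, and 62.7% and 60.3% with ascorbic acid, against 69.7% and 65.9% in control, at chr6:31900831. The ZBTB24 site had 82.9% and 83.7% with ascorbic acid, against 89.4% and 93.1% in control. All 3 were lower in both ascorbic acid libraries and none passed the test. At the first base of ZBTB11 the level was 25.6% and 32.8% with ascorbic acid, against 25.6% and 17.3% in control, higher by 7.79 points with an adjusted p of 0.296 by edgeR. An adenosine next to the cap can carry m6Am, which has the same methyl group and is read alike. In the whole series 738 tested sites lie at the first base of an annotated gene, with median levels of 30.1% with ascorbic acid and 29.7% in control, of which 3 fell and 5 rose. ZBTB24 overlaps MICAL1 on the same strand, and 2 of the tested ZBTB24 sites lie in both spans, so that reads of the 2 genes cannot be told apart there.

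Read coverage of the ZBTB genes, the deposited coverage value per gene scaled between libraries, did not pass the test in any member. By limma 0 of 39 passed at an adjusted p of 0.05, beside 0.295% of 11848 genes, and 1 member, ZBTB9, had an unadjusted p below 0.05, beside 1709 of the 11848 genes. ZBTB9 had a scaled coverage of 89.97 and 84.8 with ascorbic acid, against 96.9 and 105 in control, a difference of -0.21 ± 0.07 on the log2 scale (SE) with an adjusted p of 0.253 by limma. The groups did not overlap in ZBTB9. In the whole series 35 genes passed. The differences ran from -0.23 in ZBTB22 to 0.16 in ZBTB33, with 17 members higher and 22 lower. ZBTB48, which fell in methylation, had 52.8 and 51.1 with ascorbic acid, against 55.2 and 54.3 in control, or -0.07 ± 0.06 log2 (SE). In bulk RNA, fewer cells with a transcript and less of it per cell cannot be told apart.

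**Figure D5:**
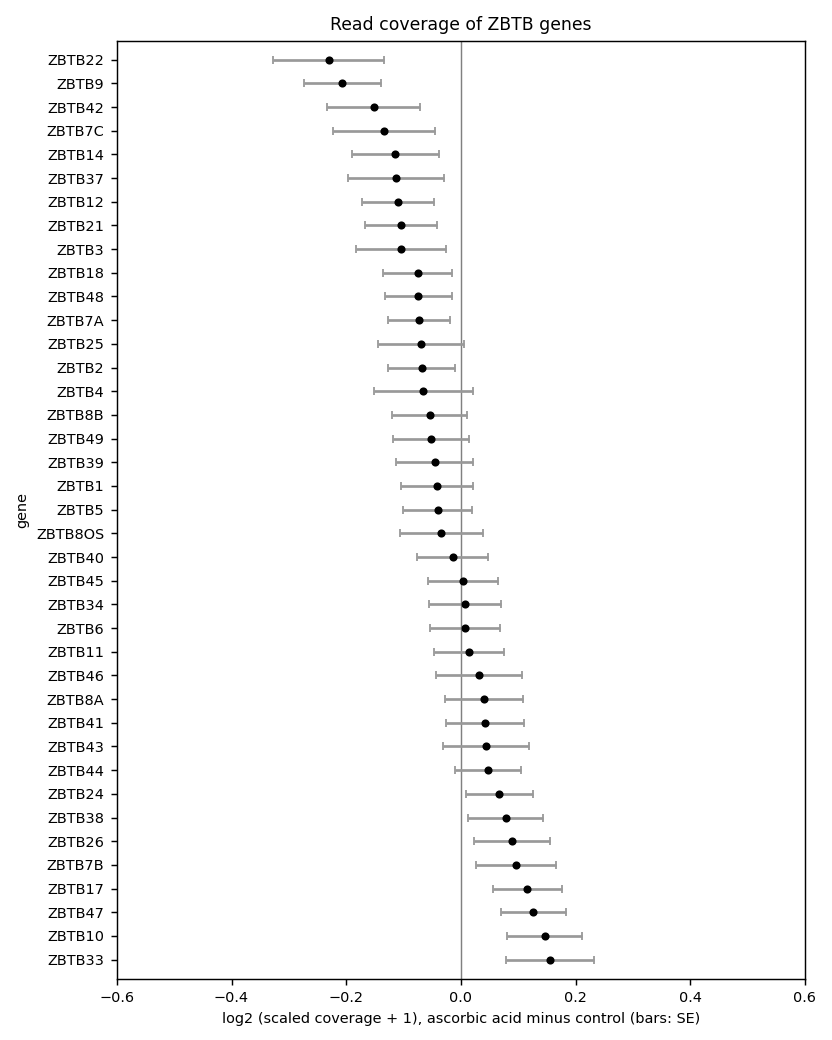
Each row is 1 of the 39 ZBTB genes, with ZBTB7C included. The x axis is ascorbic acid minus control in log2 of scaled coverage plus 1, with points for the estimate and bars for the SE. All points lie between -0.23 and 0.16, and none passed the limma test.

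Of 8 other BTB zinc finger genes outside the name rule 6 had tested sites. All 6 fell (BCL6B, GZF1, HIC2, MYNN, PATZ1 and ZNF131), beside 56.8% of all genes, while with TMM factors 0 fell and HIC2 and PATZ1 rose. PATZ1 had 45.4% and 44.7% with ascorbic acid, against 48.9% and 51.2% in control. GZF1 had 54.1% and 57.0% with ascorbic acid, against 60.3% and 64.8% in control. MYNN had 37.7% and 36.1% with ascorbic acid, against 41.6% and 46.2% in control. These levels over 21, 17 and 9 sites were lower without overlap of the groups, as in 76.7% of all genes. The 3 changes were -0.29, -0.41 and -0.42 in log2 odds, with adjusted p-values from 0.00148 to 0.00385 by edgeR. BCL6B had 1 site, with 21.1% and 19.0% with ascorbic acid, against 28.7% and 31.2% in control.

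Of 20 partners and cofactors 18 had tested sites and 16 fell, with MYC and HELLS not passing, while with TMM factors 7 fell, HDAC2, HDAC3, CUL3 and CTNND1 among them, and 4 rose. Among all 10782 genes 56.8% fell, while with TMM factors 1635 fell and 1500 rose. Without these factors the median change in log2 odds was -0.58 for the partners and -0.39 for all genes. HDAC2, a histone deacetylase, had 48.9% and 50.9% with ascorbic acid, against 66.5% and 68.3% in control, at 1 site. HDAC3, the deacetylase of the NCOR and SMRT complex, had 15.1% and 16.9% with ascorbic acid, against 29.5% and 30.0% in control, at 2 sites. CUL3 had 80.04% and 78.9% with ascorbic acid, against 92.8% and 94.0% in control, at 3 sites. CTNND1, or p120 catenin, a partner of Kaiso, had 67.4% and 63.2% with ascorbic acid, against 83.6% and 85.7% in control, at 1 site. The 4 changes ranged from -1.86 to -1.05 in log2 odds, with adjusted p-values between 1.81e-08 and 1.36e-07 by edgeR. Of this list 0 genes passed the coverage test by limma.

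Sites at the edge of detection cannot be tested, because a library lists no site below a level of 10%, 15 reads of A or G or 5 reads of A. Of the 1064 ZBTB sites listed in any library, 35, in 21 genes, were listed in both ascorbic acid libraries and no control library, and 15, in 11 genes, in both control libraries and no ascorbic acid library. The shares were 3.29% and 1.41%, beside 2.75% and 3.04% in the whole series. The median level where listed was 20.6% in the first group and 18.9% in the second, with medians of 35.5 and 41 reads, so that both kinds lie near the limits of listing.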

How the data were processed

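GLORI libraries of HEK293T mRNA were analysed as 2 ascorbic acid and 2 control samples, grouped by their labels. Reads were trimmed with Trimmomatic 0.39 and aligned with STAR to GRCh38 (hg38), per the submitters' processing notes, and the sources used here do not name the site caller. The authors deposited 1 site list per library, with the read count of A and of A plus G at each site. The deposited level is the fraction of A among those reads, and a second deposited fraction is the conversion rate per gene. The coverage per gene is a deposited signal whose unit the file headers do not define. The deposited p-value and its adjusted form, per the file headers, come from the authors' test of each site and were not used here. Every listed site had a level of 10% or more, with 5 or more A reads out of 15 or more A plus G reads.

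Tested sites needed 20 reads in every one of the 4 lists. The test was that of edgeR 4.0.16 (quasi-likelihood, 1 term per library, A against G, two-sided, Benjamini-Hochberg 0.05 over all sites). Summed reads per gene were tested likewise, and unequal change with diffSpliceDGE. Coverage was scaled with median ratios to each gene's geometric mean, and log2(coverage + 1) was tested with limma 3.58.1 with a trend. The scripts were tested on simulated data and ran in R 4.3.3 and Python 3.11.15 (numpy 2.4.6, pandas 2.3.3, scipy 1.17.1, matplotlib 3.10.9). Alternatives were DESeq2 1.42.0, limma on log2 odds with 0.5 added, TMM factors, minimum depths, thinning of neighbouring sites, a replicate block and leaving out each library.

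Values in every library are given for the 12 largest gene falls among members with at least 3 sites, the 10 largest site falls with at least 50 reads in every library (1 per gene), the site with the most reads, the 3 sites of highest level, the extremes of up to 5 genes with unequal change, and up to 4 genes of each list of other genes. ZBTB17, ZBTB33, ZBTB37, ZBTB39, ZBTB18, the coverage of ZBTB9 and ZBTB48, the ZBTB7A site at chr19:4045185 and the sites with printed sequences were added after their values were seen. The members and gene lists were chosen with earlier results of these data known. Same-numbered libraries did not deviate together (correlation of deviations -0.0053 over sites), so the replicate numbers were not taken to pair the samples.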

Additional observations from a re-analysis of the deposited data

How the results depend on the processing

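Scaling mattered most. With TMM factors on the A and G columns 40 ZBTB sites fell and 9 rose, against 78 and 0 without, and 2 genes fell and 8 rose, with ZBTB10 at 0.0012 and ZBTB1 at 0.020 in log2 odds; the 10 named site falls all still passed. Another test gave 43 (limma) and 31 (DESeq2) falls among the sites and 14 (limma) and 11 (DESeq2) among the genes. A minimum of 50 reads left 13 falls among 29 genes, 44.8% beside 58.3% of all genes. It gave a difference in median level of -5.10 points, and each library's own list gave -3.03 points. In both settings fewer or other sites entered. Leaving out 1 library gave 47 to 58 falls among sites, 12 to 20 among genes, 11 to 14 genes with unequal change, 0 genes with changed coverage and -8.66 to -6.08 points. The lowest gene count, 12, came without ascorbic acid 2. In the fits without 1 library the falls among all tested sites were fewer as well. The median log2 odds there was -0.42 to -0.30 over the ZBTB genes, beside -0.44 to -0.36 over all genes. With the replicate block, 84 sites and 19 genes fell, 14 genes changed unequally and 0 changed in coverage. The falls were 19.9% of the ZBTB sites and 50.0% of the ZBTB genes, beside 26.6% and 57.2% in the whole series. There 46.3% of genes changed unequally and 0.751% in coverage. The block made ZBTB33 a fall and ended the calls of ZBTB39 and ZBTB5. Leaving out sites with a listed site 6 nt away also made ZBTB33 a fall. The cause of these shifts was not tested. Depth limits the sites: 162 of 422 had under 50 reads in at least 1 library, and changes at sites below a level of 10% cannot be seen.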

Other observations

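The site with the largest rise among the ZBTB sites lies in ZBTB34 at chr9:126880454 and did not pass. Its level was 85.7% and 84.0% with ascorbic acid, against 60% and 77.8% in control, with an adjusted p of 0.218 by edgeR, and it was picked after its value was seen. The 2 falls in ZBTB24 were at chr6:109481647, with 68.6% and 63.3% with ascorbic acid, against 94.1% and 93.5% in control, and at chr6:109481134, with 59.4% and 69.2% with ascorbic acid, against 100% and 94.3% in control. Both lie in the first run of 6 ZBTB24 sites, and 0 of 5 fell in the second run. Where each site of ZBTB24 counted the same, its level changed by -7.12 points, against -2.07 points from the summed reads.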
